A study of Mus musculus with 6 samples.

Results

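The genes described here encode ligands, receptors and Smads of the transforming growth factor-β (TGF-β) pathway, with a pair of inhibitors and a protein that holds the latent ligand. They were taken from the deposited table by gene symbol: Tgfb1, Tgfb2, Tgfb3, Tgfbr1, Tgfbr2, Smad2, Smad3, Smad7, Skil and Nrros, 10 of 18211 genes. RNA was sequenced from oligodendrocyte precursor cells (OPCs) of C57BL/6 mice at postnatal day 7, in 3 wildtype and 3 DISC1-Δ3 libraries. The DISC1-Δ3 mice were NG2-CreERTM:DISC1 exon3 fl/+, so that a tamoxifen-activated Cre expressed under NG2 recombined exon 3 of 1 floxed Disc1 allele. NG2, encoded by Cspg4, is made by OPCs and by pericytes. According to the study's methods the wildtype mice carried no CreERT. Both groups received tamoxifen by gavage on 4 days, from P4 to P7, and OPCs were isolated from the cerebral hemispheres by immunopanning for PDGFRα. The comparison asks which transcripts differ between such preparations with and without this recombination of exon 3.

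TGF-β ligands are secreted in a latent form, in which the propeptide encloses the growth factor and is tethered to a partner protein. Nrros is the tether of latent TGF-β1 on microglia and other myeloid cells, while the Ltbp proteins tether it in extracellular matrix. Released ligand binds Tgfbr2, which phosphorylates Tgfbr1, and Tgfbr1 phosphorylates Smad2 and Smad3. These enter the nucleus with Smad4, where Skil and Ski repress their targets, and Smad7 acts at the receptor as a feedback inhibitor. Microglia depend on TGF-β signals for their mature state, and Tgfb1, Tgfbr1 and Nrros are well known as genes of microglia in the brain.

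The libraries held 13716619 to 16417219 reads assigned to genes, and a single read corresponded to 0.0596 to 0.0749 CPM, a read count scaled to the library total, after TMM scaling. Markers of OPCs and of microglia were both present in every library. The 20 microglial markers summed to between 19346 and 19857 RPKM (reads scaled by transcript length and by the total of the library) in wildtype and between 13688 and 14161 RPKM in DISC1-Δ3 libraries, and none was at 0. The 12 OPC markers summed to between 593.1 and 614.9 RPKM and between 772.6 and 800.1 RPKM, respectively, and none was at 0. The microglial sum was therefore 31.5 to 33.5 times the OPC sum in wildtype and 17.7 times in each DISC1-Δ3 library, which goes against a label of OPCs alone. These sums are over unlike genes and do not give a ratio of cells. Values below are therefore given for libraries, not for OPCs. Of the microglial markers 0 were higher, 19 were lower and 1 was not called, with a median log2 fold change of -0.49, and P2ry12, Tmem119 and Cx3cr1 had log2 fold changes of -0.23, -0.65 and -0.39. Of the OPC markers 9 were higher, 1 was lower and 2 were not called (median 0.47). By the test described below, 20.4% of all tested genes were higher and 19.5% were lower. Cspg4 and Pdgfra rose by 0.46 and 0.48. Disc1 fell from 3.55 ± 0.238 to 2.72 ± 0.240 RPKM (mean ± SD, n = 3 here and throughout), a log2 fold change of -0.45 (adjusted p = 0.000528). The gene total does not resolve exon 3. In brain tissue of these mice, the study reports more of the DISC1-Δ3 variant and unchanged full-length DISC1. DISC1-Δ3 replicate 3 stood apart from replicates 1 and 2, with chi-square values over their degrees of freedom of 5.39 and 4.99, against 1.80 to 2.97 for every other pair of libraries of a group. In these bulk samples, fewer cells of a type and less RNA per cell cannot be told apart.

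All 10 genes were tested, having reached 0.5 RPKM in 3 libraries or more. In DISC1-Δ3 libraries 7 of the 10 were lower, namely Tgfbr1, Nrros, Tgfb1, Tgfbr2, Smad7, Skil and Smad3, and 1 was higher, Tgfb3, whereas Tgfb2 and Smad2 were not called. Calls were made with edgeR's quasi-likelihood test at an adjusted p under 0.05, over 13792 genes. By the same test 39.9% of all tested genes were called, 20.4% higher and 19.5% lower. The median log2 fold change was -0.33 over the 10 genes and 0.01 over all tested genes. The median size of the change among all called genes was 0.38, so that the changes in Tgfbr1, Nrros, Tgfb3, Tgfb1 and Tgfbr2 were above it and those in Smad7, Skil and Smad3 below it. In normalised CPM the groups did not overlap for 8 of the 10 genes, against 49.6% of all tested genes.

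**Figure D1:**
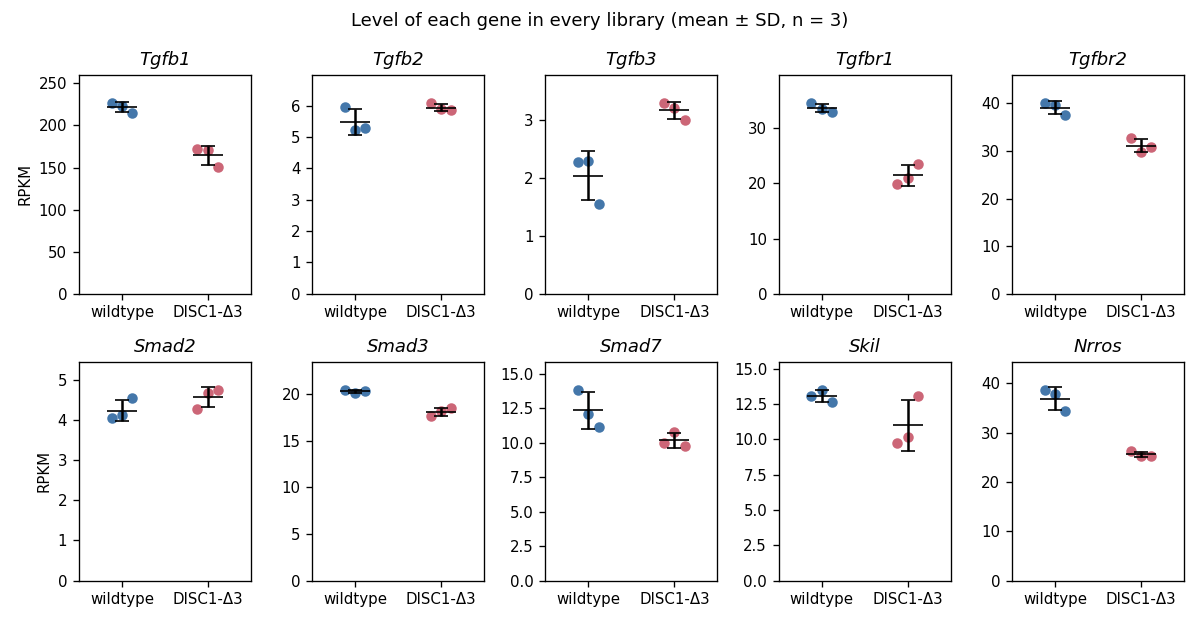
RPKM of each gene (vertical axes from 0, a separate scale per gene) in the 3 wildtype and 3 DISC1-Δ3 libraries, with points for libraries and bars for the mean ± SD. Tgfb1, Tgfbr1, Tgfbr2, Smad3, Smad7 and Nrros were lower in every DISC1-Δ3 library than in any wildtype library, Tgfb3 was higher, and Tgfb2, Smad2 and Skil overlapped in RPKM.

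Among the ligands, Tgfb1 was by far the most abundant and it fell, while the scarcest, Tgfb3, rose. Tgfb1 (gene ID 21803) encodes TGF-β1 and lies at chr7:25687002-25705077 on the plus strand of GRCm38. Its level was 226.3, 223.7 and 214.8 RPKM in wildtype replicates 1 to 3 and 171.6, 170.3 and 151.0 RPKM in DISC1-Δ3 replicates 1 to 3. Each DISC1-Δ3 library was below each wildtype library, and replicate 3 was the lowest. The mean fell from 221.6 ± 6.01 to 164.3 ± 11.5 RPKM, or to 74.2% of wildtype, with a log2 fold change of -0.51 (SE 0.052, adjusted p = 4.20e-07). Of all tested genes, 6.85% had a log2 fold change as low or lower.

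Tgfb3 (gene ID 21809, chr12:86056743-86079041, minus strand) encodes TGF-β3. It measured 2.28, 2.29 and 1.55 RPKM in wildtype and 3.29, 3.21 and 3.01 RPKM in DISC1-Δ3 libraries, from 82 to 122 and from 152 to 168 reads. The groups did not overlap, and wildtype replicate 3 was the lowest of all. The rise, from 2.04 ± 0.424 to 3.17 ± 0.144 RPKM, gave a log2 fold change of 0.56 (SE 0.15, adjusted p = 0.00584), and 6.98% of tested genes had a change as high or higher. The exons of Tgfb3 share 420 bases with genes of the opposite strand (Gm37804 and Gm48008). Whether counting used the strand is not given in the sources used here, so reads from these bases cannot be assigned to Tgfb3 with certainty.

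Tgfb2 (gene ID 21808, chr1:186622787-186709697, minus strand) encodes TGF-β2. It gave 5.97, 5.22 and 5.28 RPKM in wildtype and 6.08, 5.90 and 5.86 RPKM in DISC1-Δ3 libraries. Wildtype replicate 1 lay within the DISC1-Δ3 range. The log2 fold change was 0.04 with a 95% interval of -0.13 to 0.20 (adjusted p = 0.741). An antisense gene, Gm29491, shares 124 bases of its exons.

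The summed RPKM of the 3 ligands was 229.1 ± 6.69 in wildtype and 173.4 ± 11.8 in DISC1-Δ3 libraries. Tgfb1 made up 96.7% ± 0.220 of it in wildtype and 94.7% ± 0.248 in DISC1-Δ3 libraries. The share of Tgfb2 was 2.40% ± 0.144 and 3.44% ± 0.201, and that of Tgfb3 was 0.887% ± 0.163 and 1.83% ± 0.0481. None of these shares overlapped between the groups (exact two-sided permutation test, p = 0.1 for each, the smallest p that 3 against 3 libraries can give). The shares are parts of the same sum, so these are not separate results. A fall in Tgfb1 alone raises the other shares, and Tgfb2 itself was not called.

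Both receptor genes fell, and the fitted change of Tgfbr1 was the lower. Tgfbr1 (gene ID 21812, chr4:47353222-47414926, plus strand) encodes the type I receptor kinase, which phosphorylates the Smads. It had 34.5, 33.5 and 33.0 RPKM in wildtype and 19.8, 21.0 and 23.5 RPKM in DISC1-Δ3 libraries. The wildtype libraries lay close together and all DISC1-Δ3 libraries were well below them, replicate 3 the least. The mean went from 33.7 ± 0.777 to 21.4 ± 1.85 RPKM, to 63.7% of wildtype. The log2 fold change of -0.73 (SE 0.053, adjusted p = 5.20e-09) was the lowest of the 10 genes, and 2.89% of tested genes had a change as low or lower.

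Tgfbr2 (gene ID 21813, chr9:116087695-116175363, minus strand) encodes the type II receptor kinase, which binds the ligand first. It measured 40.0, 39.7 and 37.5 RPKM in wildtype and 32.8, 29.9 and 30.9 RPKM in DISC1-Δ3 libraries. The groups did not overlap, and the mean fell from 39.1 ± 1.39 to 31.2 ± 1.46 RPKM (log2 fold change -0.41, SE 0.049, adjusted p = 2.38e-06). Tgfbr1 per Tgfbr2, as a ratio of RPKM, was 0.862, 0.843 and 0.880 in wildtype libraries and 0.606, 0.703 and 0.760 in DISC1-Δ3 libraries. This ratio was lower in each DISC1-Δ3 library than in any wildtype library (exact two-sided permutation test, p = 0.1, the smallest possible).

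Nrros (gene ID 224109, chr16:32142785-32165594, minus strand) encodes the membrane protein that tethers latent TGF-β1, and it fell with Tgfb1. Its level was 38.6, 37.8 and 34.3 RPKM in wildtype and 26.2, 25.3 and 25.3 RPKM in DISC1-Δ3 libraries. The groups were well separated, and the DISC1-Δ3 libraries were nearly equal. The mean fell from 36.9 ± 2.28 to 25.6 ± 0.523 RPKM, to 69.4% of wildtype, with a log2 fold change of -0.61 (SE 0.057, adjusted p = 1.26e-07). Nrros per Tgfb1 was 0.167 ± 0.00584 in wildtype and 0.156 ± 0.00991 in DISC1-Δ3 libraries, and these ratios overlapped (exact two-sided permutation test, p = 0.2).

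The sequences before the transcription starts of the 4 genes with the lowest log2 fold changes, Tgfbr1, Nrros, Tgfb1 and Tgfbr2, are shown because these genes fell together. Each run is the 250 bases before the annotated RefSeq start on the gene's own strand, 5′ to 3′, in assembly GRCm38.p6. Capitals mark CAGAC, the core of a Smad-binding element, and GAGGAA, the core of a site for PU.1-type ETS factors, which are central to microglial gene expression. Both were searched on both strands, and their matches did not overlap.
Tgfbr1, outer start, chr4:47352972-47353221: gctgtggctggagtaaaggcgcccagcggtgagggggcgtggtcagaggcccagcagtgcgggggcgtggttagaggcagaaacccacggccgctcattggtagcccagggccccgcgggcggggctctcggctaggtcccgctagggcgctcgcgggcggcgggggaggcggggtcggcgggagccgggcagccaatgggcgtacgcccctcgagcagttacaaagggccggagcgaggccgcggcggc
Nrros, chr16:32165595-32165844: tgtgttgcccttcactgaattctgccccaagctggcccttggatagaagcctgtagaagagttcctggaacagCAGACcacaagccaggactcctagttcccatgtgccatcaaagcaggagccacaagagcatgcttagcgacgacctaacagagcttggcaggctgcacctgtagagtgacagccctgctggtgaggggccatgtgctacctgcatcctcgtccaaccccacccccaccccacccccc
Tgfb1, chr7:25686752-25687001: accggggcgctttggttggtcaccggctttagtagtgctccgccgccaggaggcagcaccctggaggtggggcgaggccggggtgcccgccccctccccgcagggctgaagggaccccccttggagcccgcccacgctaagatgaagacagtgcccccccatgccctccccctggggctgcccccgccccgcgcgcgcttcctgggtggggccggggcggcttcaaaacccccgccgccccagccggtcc
Tgfbr2, chr9:116175364-116175613: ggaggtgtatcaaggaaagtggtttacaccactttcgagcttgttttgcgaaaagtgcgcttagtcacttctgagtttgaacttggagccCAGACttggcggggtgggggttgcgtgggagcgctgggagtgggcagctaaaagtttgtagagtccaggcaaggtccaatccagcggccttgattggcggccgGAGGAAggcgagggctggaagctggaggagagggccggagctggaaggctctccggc

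The windows of Tgfb1 and of the outer Tgfbr1 start were rich in G and C, at 75.2% and 74.8%, and held neither run of letters. The windows of Nrros and Tgfbr2 were both at 58.4%. Nrros held CAGAC at 177 bases before its start. Tgfbr2 held CAGAC at 160 and GAGGAA at 57 bases before its start, and a second, inner Tgfbr1 start had both as well, at 203 and 95 bases. Of 32851 mouse promoter windows of the same length, 42.2% held CAGAC and 23.3% held GAGGAA. The table of promoter sequences matched 6 of the 10 genes, and the other windows were those of Tgfb2 and Smad3. Tgfb2, which was not called, had 2 CAGAC matches and 1 match of GAGGAA, on the opposite strand, and Smad3 had neither.

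**Figure D2:**
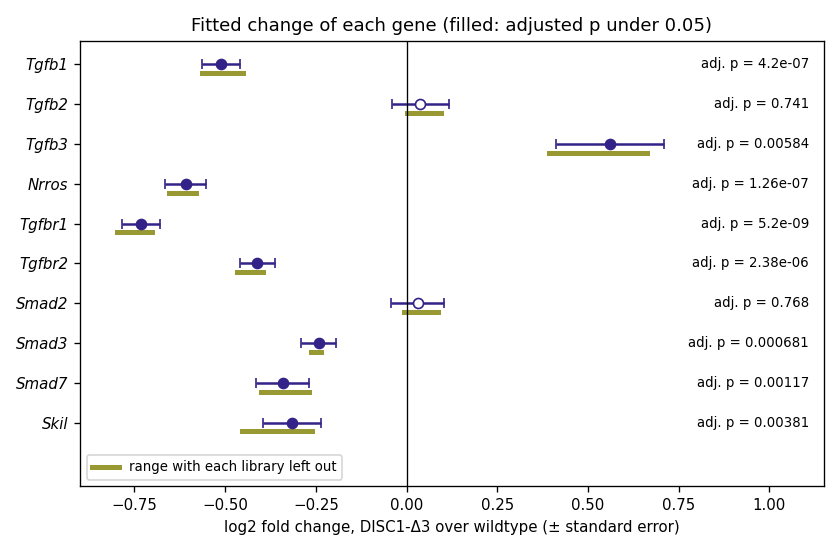
Fitted log2 fold change of each gene (horizontal axis, DISC1-Δ3 over wildtype) with its standard error, filled where the adjusted p was under 0.05, and in green the range of the value with each library left out in turn. Tgfbr1 lies lowest at -0.73 and Tgfb3 highest at 0.56, and among the 10 genes the green range crosses 0 for Smad2 alone.

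Of the receptor-regulated Smads, Smad3 fell by a small amount and Smad2 was not called. Smad3 (gene ID 17127, minus strand, chr9:63646766-63757994) measured 20.4, 20.1 and 20.3 RPKM in wildtype and 17.6, 18.2 and 18.5 RPKM in DISC1-Δ3 libraries. The spread within each group was small and the groups did not overlap, with a log2 fold change of -0.24 (SE 0.049, adjusted p = 0.000681). Smad2 (gene ID 17126, chr18:76241090-76311748, plus strand) measured 4.04, 4.12 and 4.54 RPKM in wildtype and 4.28, 4.68 and 4.74 RPKM in DISC1-Δ3 libraries. The groups overlapped, and the log2 fold change was 0.03 with a 95% interval of -0.12 to 0.18 (adjusted p = 0.768). Smad3 per Smad2 was 4.80 ± 0.298 in wildtype and 3.97 ± 0.130 in DISC1-Δ3 libraries, without overlap (exact two-sided permutation test, p = 0.1, the smallest possible).

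The common partner Smad4 changed by 0.11 on the log2 scale and was not called (adjusted p = 0.102). Its level was 14.8 ± 0.238 RPKM in wildtype and 18.5 ± 0.677 RPKM in DISC1-Δ3 libraries. Smad4 was called higher in both limma fits to RPKM and with library totals as scaling, so its call depends on the setting. Its mean reads went from 1180 to 1348, in proportion a smaller rise than in RPKM, and the cause was not tested. Of the 5 other Smads tested, Smad4 included, 1 was higher, Smad5, which transmits BMP signals (log2 fold change 0.20, adjusted p = 0.0168), and 4 were not called. This count is near the 20.4% called higher among all tested genes and is no result about the list. The Smad5 call was lost without wildtype replicate 1 (adjusted p = 0.0785), DISC1-Δ3 replicate 2 (0.0631) or DISC1-Δ3 replicate 3 (0.0532).

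Both inhibitors of the pathway fell. Smad7 (gene ID 17131, chr18:75367365-75395935, plus strand) encodes the inhibitory Smad, itself induced by TGF-β. It had 13.8, 12.1 and 11.1 RPKM in wildtype and 9.97, 10.8 and 9.74 RPKM in DISC1-Δ3 libraries. The gap between the groups was narrow, with wildtype replicate 3 and DISC1-Δ3 replicate 2 nearly equal, and the log2 fold change was -0.34 (SE 0.073, adjusted p = 0.00117). Smad7 per Smad3 was 0.608 ± 0.0647 in wildtype and 0.562 ± 0.0333 in DISC1-Δ3 libraries, with overlap (exact two-sided permutation test, p = 0.4).

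Skil (gene ID 20482, chr3:31095058-31122923, plus strand) encodes SnoN, a repressor of Smad-driven transcription that is also induced by TGF-β. It had 13.09, 13.48 and 12.62 RPKM in wildtype and 9.73, 10.17 and 13.05 RPKM in DISC1-Δ3 libraries. DISC1-Δ3 replicates 1 and 2 were below every wildtype library, and replicate 3 lay within the wildtype range in RPKM. The log2 fold change was -0.32 (SE 0.079, adjusted p = 0.00381), and -0.45 without DISC1-Δ3 replicate 3. Skil was the only member whose call was lost in limma fits to log2(RPKM + 1) and log2(RPKM + 0.1), with adjusted p = 0.0571 and 0.0578.

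In wildtype the order of levels in RPKM was Tgfb1, Tgfbr2, Nrros, Tgfbr1, Smad3, Skil, Smad7, Tgfb2, Smad2 and Tgfb3. The order of the means was the same in DISC1-Δ3 libraries. Neighbours that overlapped in wildtype were Tgfbr2 with Nrros, Nrros with Tgfbr1, and Skil with Smad7. In DISC1-Δ3 libraries the last of these pairs alone overlapped. Tgfb1 was above 97.4% of tested genes in wildtype and 96.6% in DISC1-Δ3 libraries, and Tgfb3 above 19.4% and 25.6%.

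The summed microglial markers stood at 71.4% of wildtype in DISC1-Δ3 libraries. Of the genes called lower, Tgfbr1 stood at 63.7%, Nrros at 69.4%, Tgfb1 at 74.2% and Tgfbr2 at 79.7%. Smad7, Skil and Smad3, also called lower, stood at 82.4%, 84.1% and 89.3%. Smad2 stood at 107.9%, Tgfb2 at 108.3% and Tgfb3 at 155.4%. The summed OPC markers stood at 131.0%. As a percentage of the summed microglial markers in the same library, Tgfb1 was 1.13% ± 0.0457 in wildtype and 1.18% ± 0.0628 in DISC1-Δ3 libraries, with overlap. On the same scale Nrros was 0.189% ± 0.0141 and 0.183% ± 0.00394, with overlap. Tgfbr1 was 0.172% ± 0.00613 and 0.154% ± 0.0159, and its overlap rests on DISC1-Δ3 replicate 3, at 0.171%, since replicates 1 and 2, at 0.141% and 0.148%, lay below every wildtype library (0.166% to 0.178%). Smad7 and Skil overlapped too. Relative to these markers the other 5, Tgfb2, Tgfb3, Tgfbr2, Smad2 and Smad3, were higher in every DISC1-Δ3 library, Tgfbr2 for example at 0.200% ± 0.00969 and 0.223% ± 0.0111. Relative to the summed OPC markers, 9 of the 10 were lower in every DISC1-Δ3 library, and Tgfb3 was higher. A gene of unchanged RPKM is lower relative to the OPC sum, which rose, and higher relative to the microglial sum, which fell. The share of all tested genes on these scales was not computed, so these counts are no result about the 10 genes. The part of the microglial RNA in the differences between genotypes was not tested.

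**Figure D3:**
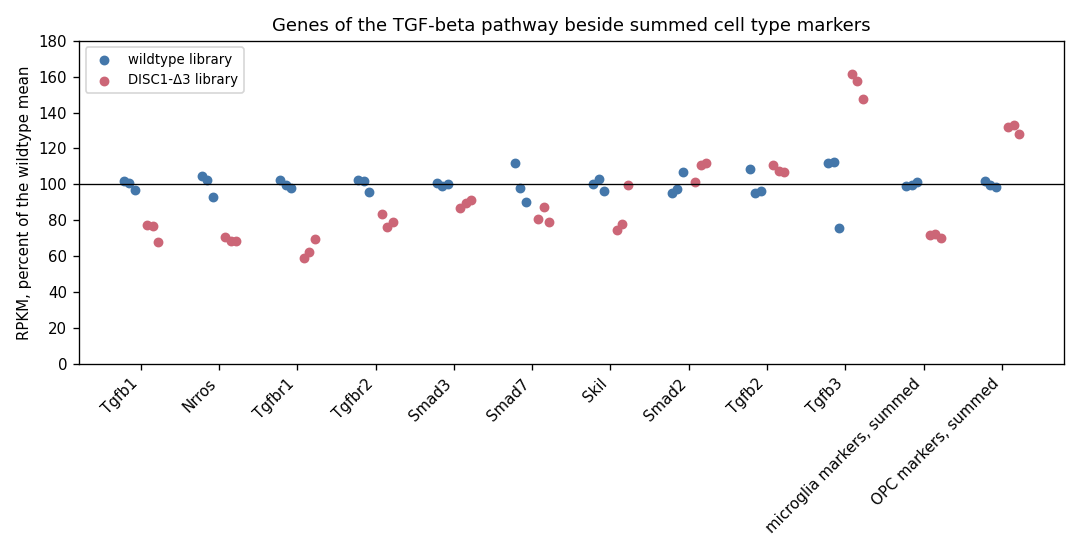
RPKM of each gene, and of the summed microglial and OPC markers, in every library as a percentage of the wildtype mean (vertical axis from 0). The DISC1-Δ3 libraries lie between 70.0% and 72.4% for the microglial sum and between 128.2% and 132.8% for the OPC sum. Among the genes called lower, they lie between 58.9% and 69.7% for Tgfbr1 and between 68.5% and 71.0% for Nrros. For Smad3, also called lower, they lie between 86.9% and 91.1%.

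Markers of other cells also moved, beside 20.4% of all tested genes called higher and 19.5% called lower. Border macrophage markers were lower in 3 and not called in 4 of 7 (2 were higher in limma and with library totals as scaling), with sums of 115.6 to 122.1 RPKM in wildtype and 102.1 to 110.0 RPKM in DISC1-Δ3 libraries. Oligodendrocyte markers were lower in 8 of 10 and astrocyte markers lower in 7 and higher in 2 of 10. The oligodendrocyte sums were 2294 to 2323 RPKM in wildtype and 2119 to 2151 RPKM in DISC1-Δ3 libraries. The astrocyte sums were 2045 to 2089 RPKM and 1959 to 1978 RPKM, respectively, and both lists were above the OPC sums. Endothelial markers were higher in 6 of 11, mural cell markers in 6 of 8 and neuron markers in 7 of 9. Over all settings these higher counts ran from 4 to 6, from 5 to 6 and from 5 to 7, respectively. Without DISC1-Δ3 replicate 2, 1 endothelial marker was lower. Of the neuron markers, 1 was lower without a filter and 2 were lower without DISC1-Δ3 replicate 3. Of the 4 fibroblast markers tested, 0 were called by edgeR as fitted here (1 with an unadjusted p under 0.05) and 0 by DESeq2, and 2 were called higher in limma and in edgeR with library totals as scaling. Without a filter or with a replicate block edgeR called 1 higher, and it called 1 without DISC1-Δ3 replicate 2, 1 without DISC1-Δ3 replicate 3 and 2 without wildtype replicate 1. Dpt was at 0 in at least 1 library. Mural cell markers, from pericytes and smooth muscle, summed to 161.6 to 173.1 RPKM in wildtype and 222.5 to 229.3 RPKM in DISC1-Δ3 libraries. Their part in the results on Tgfb3 and the contractile genes was not tested.

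Of 13 tested genes that tether or activate latent TGF-β, 3 were higher, 2 were lower and 8 were not called (median log2 fold change -0.07). This is a share near the 39.9% called among all tested genes and is no result about the list. Ltbp1 had its largest change. Ltbp1, which binds latent TGF-β to extracellular matrix, had 2.35, 2.56 and 2.10 RPKM in wildtype and 14.3, 13.6 and 14.5 RPKM in DISC1-Δ3 libraries. Every DISC1-Δ3 library was above every wildtype library, with a log2 fold change of 2.50 (SE 0.081, adjusted p = 9.74e-14), and 0.812% of tested genes had a change as high or higher. Ltbp4, of the same family, rose from 10.9 ± 0.599 to 14.1 ± 0.765 RPKM (log2 fold change 0.29, adjusted p = 0.00217). Itgb5, the β5 integrin subunit that pairs with αv, fell from 371.7 ± 3.09 to 262.8 ± 9.24 RPKM (log2 fold change -0.58, adjusted p = 6.03e-09). Itgav and Itgb8, the subunits of the activating integrin αvβ8, had log2 fold changes of -0.09 (adjusted p = 0.218) and -0.22 (adjusted p = 0.156). Without DISC1-Δ3 replicate 3 Itgav was called lower (adjusted p = 0.0237), and 4 genes of the list were. With library totals as scaling 5 were higher and 1 was lower. Mfap2, the other higher gene, was named after its values were seen. Its call was lost without wildtype replicate 2 or 3, or DISC1-Δ3 replicate 1 or 2, which left 2 higher. The lower call of Itgb1, also named so, was lost in both limma fits and with library totals, which left 1 lower.

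Among co-receptors and membrane regulators, 2 of 10 were higher, 4 were lower and 4 were not called (median -0.04). The shares over all tested genes were 20.4% higher and 19.5% lower. The higher call of Zfyve9, named after its values were seen, was lost with DESeq2 and without wildtype replicate 1, wildtype replicate 2, DISC1-Δ3 replicate 1 or DISC1-Δ3 replicate 2, which left 1 higher. Bambi, a decoy receptor without a kinase, rose from 1.94 ± 0.0666 to 3.09 ± 0.223 RPKM (log2 fold change 0.59, adjusted p = 0.000269). Pmepa1 and Ldlrad4, related membrane proteins that keep Smad2 and Smad3 from the receptor, both changed by -0.50 on the log2 scale (adjusted p = 5.51e-07 and 3.58e-06). Pmepa1 fell from 28.4 ± 0.889 to 21.2 ± 0.969 RPKM and Ldlrad4 from 19.7 ± 0.660 to 14.2 ± 1.01 RPKM. Tgfbr3, the co-receptor betaglycan, was near the detection filter at 0.597 ± 0.0945 and 0.863 ± 0.106 RPKM (log2 fold change 0.44, adjusted p = 0.0615). It was called higher without DISC1-Δ3 replicate 3 (adjusted p = 0.0216) and with library totals as scaling (0.0274), where 4 of the list were higher.

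Of 14 Smad cofactors and turnover genes, 2 were higher, 7 were lower and 5 were not called (median -0.24). Over all tested genes 20.4% were higher and 19.5% were lower. Ski, the partner repressor of Skil, fell from 66.6 ± 3.25 to 49.2 ± 0.887 RPKM (log2 fold change -0.52, adjusted p = 5.01e-08). Tgif1, a homeodomain repressor that binds Smads, fell from 47.8 ± 2.36 to 38.2 ± 1.02 RPKM (log2 fold change -0.40, adjusted p = 2.20e-05). Usp15, a deubiquitinase that acts on Smads and the type I receptor, had 7.27, 6.32 and 6.45 RPKM in wildtype. In DISC1-Δ3 libraries it had 4.58, 5.40 and 6.35 RPKM, and replicate 3 lay within the wildtype range. Usp15 changed by -0.42 on the log2 scale (adjusted p = 0.00537), and this call was lost in both limma fits (adjusted p = 0.0621 and 0.0623). Those fits called 3 genes of this list lower. Ppm1a, named after its values were seen, lost its higher call with median-of-ratios scaling and with DESeq2. That call was also lost without wildtype replicate 1 or 3, or DISC1-Δ3 replicate 1 or 2. In each of these settings 1 gene of the list was higher.

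Activin signals run through Smad2 and Smad3 as well. Of 7 genes of this branch tested, 3 were higher, 1 was lower and 3 were not called (median 0.06). Over all tested genes 20.4% were higher and 19.5% were lower. The lower gene, Acvr2b, a receptor for activins named after its values were seen, was not called in the limma fits, and 2 were lower without DISC1-Δ3 replicate 3. Fst, which encodes the secreted activin antagonist follistatin, had 4, 1 and 3 reads in wildtype and 346, 342 and 366 reads in DISC1-Δ3 libraries. It was barely detected in wildtype and present in every DISC1-Δ3 library, a ratio of normalised reads of 124 with an exact 95% interval of 62.9 to 289 for counting error only (adjusted p = 1.21e-13). Inhbb, the βB subunit of activin, rose from 3.03 ± 0.272 to 8.50 ± 0.615 RPKM (log2 fold change 1.41, adjusted p = 1.07e-09). Gdf11, a ligand of the activin receptors, rose from 2.34 ± 0.171 to 3.99 ± 0.257 RPKM (log2 fold change 0.69, adjusted p = 0.00160).

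Genes commonly used as TGF-β targets did not move one way. Of 15 tested, 7 were higher, 5 were lower and 3 were not called (median 0.26). The shares over all tested genes were 20.4% higher and 19.5% lower. Tgfbi, a matrix protein named for its induction by TGF-β, had 52.9, 50.2 and 53.8 RPKM in wildtype and 29.5, 27.3 and 26.4 RPKM in DISC1-Δ3 libraries (log2 fold change -0.997, adjusted p = 1.59e-10). The groups were far apart, and 1.13% of tested genes had a change as low or lower. Tagln, a contractile protein of smooth muscle, rose from 8.12 ± 0.544 to 13.8 ± 0.918 RPKM (log2 fold change 0.68, adjusted p = 3.41e-05). Cdkn1a, an inhibitor of the cell cycle, rose from 59.9 ± 2.01 to 100.1 ± 4.57 RPKM (log2 fold change 0.66, adjusted p = 1.27e-08). Over the 6 pathway lists 18 genes were higher and 19 were lower. With library totals as scaling the split was 23 higher and 15 lower, and both limma fits called 12 lower. Among all tested genes 51.1% of calls were higher, and 69.1% with library totals. The 10 TGF-β genes kept 1 higher and 7 lower under all 3 scalings.

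**Figure D4:**
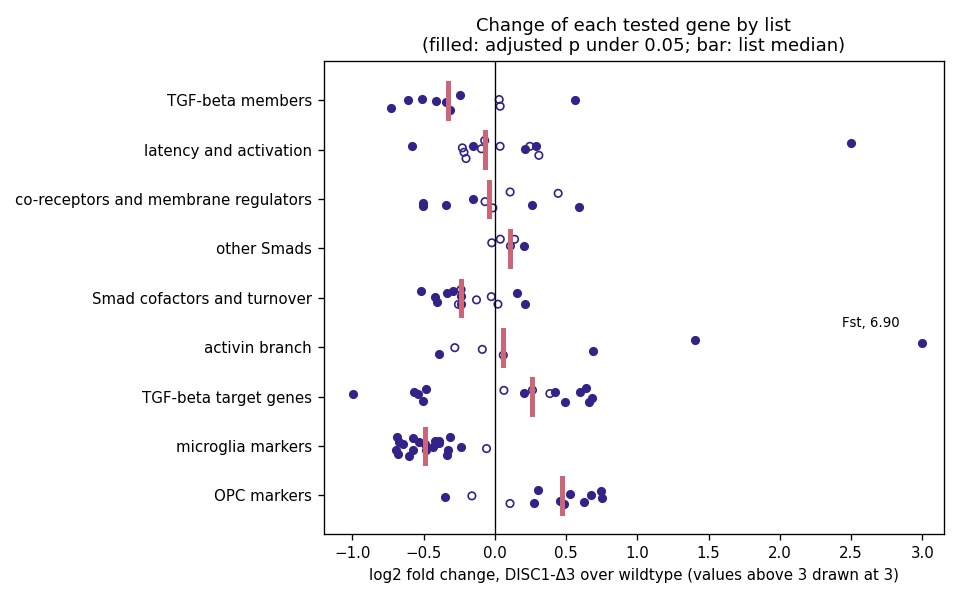
Log2 fold change (horizontal axis, DISC1-Δ3 over wildtype) of each tested gene, grouped by list, filled where the adjusted p was under 0.05, with a red bar at each list's median. The 10 TGF-β genes have a median of -0.33, the microglial markers -0.49 and the OPC markers 0.47, and Fst, drawn at the right edge, has a fitted value of 6.90.

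The genes whose levels across the 6 libraries were most like those of the TGF-β genes were found by Pearson's r of log2(RPKM + 1) over all tested genes. All genes share the same 6 libraries, and the difference between the groups enters r. Closest to Tgfb1 were Myh14 (r = 0.998), Litaf and Unc13d, and 40 genes had an r above 0.99. Closest to Tgfbr1 were AI987944, Ssh2 (r = 0.998) and Mtus1, with 60 genes above 0.99. Ssh2, a phosphatase that activates cofilin, went from 17.8 to 8.56 RPKM, and Mtus1 from 21.6 to 13.4 RPKM. Closest to Nrros were Golm1 (r = 0.999), Trpv4 and Mapkapk2, with 34 genes above 0.99. Closest to Skil were Atp7a (r = 0.997), Asph and Zc3h7a, with 16 above 0.99.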

How the data were processed

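RNA from cells immunopanned as OPCs was sequenced on a BGI platform, in 3 libraries of wildtype and 3 of DISC1-Δ3 mice. The authors deposited, for each of 18211 genes and 6 libraries, an expected count of reads and an RPKM. The submitters' processing notes name Bowtie2 2.2.5 and mm10, and the counting tool, annotation and strand setting are not given in the sources used here. Of the counts above 0, 90.2% were whole numbers, as were all 60 values of the 10 genes. Expected counts split reads between similar genes, which can shift values of close paralogs, and 4 deposited columns of group averages were not used.

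Counts were rounded, scaled by TMM and tested with edgeR 4.0.16 in R 4.3.3 (quasi-likelihood test, two-sided, genotype as the only term) for the 13792 genes with RPKM of at least 0.5 in at least 3 libraries, with Benjamini-Hochberg adjustment over all of them. Groups came from the labels. The standard error is the log2 fold change divided by the root of its F statistic, and its 95% interval uses the fit's degrees of freedom. Ratios of RPKM were compared by exact permutation. The sources used here do not say whether each library came from a separate animal, so p-values measure the spread between these samples, which may be technical. Intervals on reads cover counting error only.

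Alternatives were median-of-ratios scaling, library totals as scaling, no filter, a filter at RPKM of 1, DESeq2 1.42.0, limma 3.58.1 on log2 RPKM with pseudocounts of 1 and 0.1, the replicate number as a block, and each library left out. The fit was tested on simulated data. Coordinates and promoters are from RefSeq, GRCm38, the build mm10. The 10 genes and the gene lists were chosen with earlier results of these data known. Named beside the 10 were Smad4, Tgfbr3, Itgav, Itgb8, the 3 called genes of each pathway list with the largest change and no overlap in CPM, the 3 genes most correlated with each of Tgfb1, Tgfbr1, Nrros and Skil, and Disc1, Cspg4, Pdgfra, P2ry12, Tmem119 and Cx3cr1 as checks.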

Additional observations from a re-analysis of the deposited data

How the results depend on the processing

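For the 10 TGF-β genes, 136 of 140 values under the alternatives kept their direction and their side of the threshold. The exceptions were Skil in both limma fits, and Smad2, not called in any setting, whose log2 fold change ran from -0.0079 to 0.0876 with each library left out and was below 0 on leaving out either wildtype replicate 1 or DISC1-Δ3 replicate 2. The called genes among the 10 numbered 8 in every setting but the limma fits, which called 7. Over all genes 4342 to 6232 were called, with 4600 by DESeq2. In the pathway lists 32 to 44 genes were called, and those lower were 12 in limma on log2(RPKM + 1) and 12 in limma on log2(RPKM + 0.1), against 19. The cause of these shifts was not tested. Deviations from the group mean correlated at 0.117, 0.0305 and -0.034 for same-numbered libraries, and at -0.1 to 0.0624 for differently numbered ones. With 3 libraries per group, these values cannot decide whether the replicate numbers pair the libraries. With the replicate number as a block, 5429 genes were called, and 8 of the 10. Depth limits genes with few reads, such as Fst with 8 wildtype reads in all.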
